A study of Homo sapiens with 6 samples.

Results

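The long arm of chromosome 8 held 4651 of the 102784 regions of accessible chromatin found in RKO cells, or 4.53% of them. RKO is a human colon cancer cell line, described here as ATCC cells of low passage. Accessibility was measured by ATAC-seq, in which the Tn5 transposase inserts sequencing adapters where the DNA is not covered by nucleosomes, so that accessible sites appear as peaks of reads. A group of 3 samples was treated for 16 h with 0.2 µM aphidicolin (APH) and another of 3 samples with its solvent, DMSO. All 6 samples were cultivated at low oxygen, treated with DNase and frozen before the assay, so these steps were shared by both groups. A region was formed by merging the peaks of all samples that overlap by at least 1 bp, and it belonged to the arm when its midpoint lay at or beyond position 45163035 of chromosome 8 (GRCh38) and outside an interval left out, from 126.0 to 129.5 Mb. The arm was chosen by its peak values and peak numbers in APH and DMSO, measured in these same samples, so every difference between the conditions on the arm is given here as a description. The one test shown is limma's fit over all shared regions of the genome. Counts of its calls on the arm come from the same values that chose the arm, so nothing is read from them.

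Aphidicolin slows the replicative DNA polymerases, and at low doses it causes mild replication stress, in which forks progress slowly while cells go on dividing. Accessible regions are mostly the promoters of active genes, which are open in many cell types and carry strong peaks, and distal elements such as enhancers, which lie in introns or between genes and depend more on the cell type. The long arm of this chromosome is poor in genes over most of its length and ends in a stretch dense in genes, rich in zinc finger, epithelial surface and metabolic genes.

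Of the 4651 regions, 1946 had a peak in every sample (41.8%), against 719 of 1526 regions (47.1%) on the same chromosome before 43.5 Mb, called the short side below, and 48.8% of all regions. These shared regions carry all comparisons of peak strength. They comprised 241 regions at coding promoters (no more than 1 kb from a protein-coding gene's start), 40 at promoters of other genes, 966 in gene bodies and 699 between genes. Regions in gene bodies and between genes were 49.6% and 35.9% of the arm's shared regions, against 48.3% and 27.6% on other chromosomes. Coding promoters were 12.4% on the arm against 21.3% elsewhere, and other promoters 2.06% against 2.81%. The excluded interval held 194 regions. The labelled cell type was checked by the promoter regions of marker genes: EPCAM, KRT8, KRT18 and CDX2, 4 of 9 colon epithelial markers, had a peak in every sample, and another 4 of the 9 had no peak in any sample. CDH17, a cadherin of the intestinal epithelium that lies on the arm, was among those without a peak. COL1A1 and COL1A2 among 5 fibroblast markers and CD68 among 5 haematopoietic markers had a peak in every sample, and 2 and 4 markers of these lists had none.

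The peak lists gave between 64511 and 84510 peaks per sample, and the depth of the libraries is unknown. The 3 APH samples had lower mean peak values over the whole genome, with 71.2 ± 1.79 (SD, n = 3) against 82.2 ± 3.55 (n = 3). The value of a peak is the mean read coverage over it, and it was not scaled to the library. Coding promoters of other chromosomes also differed between samples of the same condition: their median strength-corrected value, defined below, was 0.070, −0.065 and 0.117 in DMSO and −0.082, −0.124 and 0.068 in APH (log2). Nothing in the labels says whether the samples came from separate cultures, although the study describes 3 independent experiments.

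The long arm took a larger share of the peaks in the APH samples. It held 3.95%, 3.97% and 3.93% of all peaks in the 3 DMSO samples, and 4.33%, 4.33% and 4.30% in the 3 APH samples. The groups did not overlap, and their means differed by 0.370 percentage points, or 1.09-fold. In such bulk samples, a site open in more cells and a site more open in each cell cannot be told apart. Per the study's methods, peaks were called without a control file, so the amount of DNA at a site was not separated from its openness. On the short side the shares were 1.44%, 1.47% and 1.46% in DMSO and 1.45%, 1.46% and 1.48% in APH, and the groups overlapped. The number of peaks on the long arm for each peak of the short side was accordingly 2.71 ± 0.029 in DMSO (SD, n = 3) and 2.95 ± 0.044 in APH (n = 3). The length of DNA covered by peaks on the arm was 1107, 1188 and 1058 kb in DMSO and 1327, 1371 and 1204 kb in APH, again without overlap. The arm's part of the covered length of each sample was 3.76% ± 0.070 in DMSO and 4.11% ± 0.077 in APH.

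**Figure D1:**
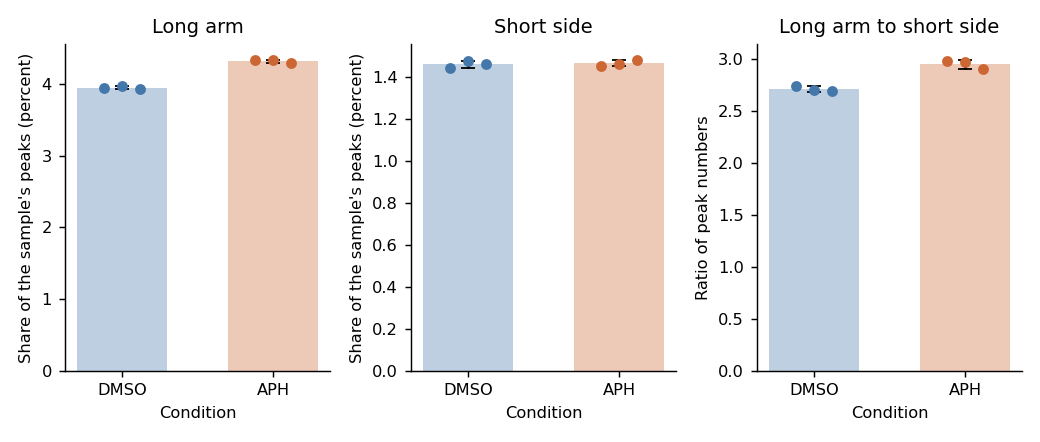
Share of each sample's peaks on the long arm (left) and on the short side (middle) in percent, and ratio of the 2 peak numbers (right), for DMSO and APH; points are samples, bars are means of 3 and error bars are SD. The APH samples lie above the DMSO samples for the long arm, at 4.30% to 4.33% against 3.93% to 3.97%, and among them for the short side.

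The mean value of the peaks was lower in APH on both sides of the centromere. The DMSO samples had a mean peak value of 87.7 ± 2.85 on the arm (SD, n = 3) and the APH samples one of 75.7 ± 1.75, and on the short side it was 71.0 ± 2.32 and 62.6 ± 1.77. The ratio of the mean peak value of the long arm to that of the short side was 1.23, 1.24 and 1.23 in DMSO and 1.22, 1.21 and 1.20 in APH. Both means include the additional peaks of APH samples, so they do not compare the same regions.

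For the same regions in all samples, each value was put on the scale log2(value + 1), and the trend of each sample with region strength was removed, so that a value of 0 is that of a typical region of this strength in the sample. On this strength-corrected scale the median of the arm's 1946 shared regions was −0.049, −0.041 and −0.094 in DMSO and 0.084, 0.075 and 0.028 in APH. All 3 APH samples lay above all 3 DMSO samples, and the means differed by 0.124 (log2), or 1.09-fold. On the short side the medians lay between 0.0005 and 0.0079 in DMSO and between −0.0075 and 0.015 in APH, with a difference of −0.0035. Without the trend correction, with each sample only centred on its median, the arm differed by 0.142, but DMSO replicate 2 (0.016) lay above APH replicate 3 (0.005), and the groups overlapped.

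The shift was spread over many regions. Of the arm's shared regions 69.4% had a higher mean in APH, compared with 48.1% on the short side and 47.7% on other chromosomes. The APH values were all above the DMSO values in 382 regions of the arm (19.6%), where 8.61% of all shared regions were so, and all below in 56 (2.88%), where 7.48% of all shared regions were. The difference of a region lay between −0.159 and 0.417 from the 10th to the 90th percentile on the arm, and between −0.270 and 0.288 on the short side. Without a block for the replicate number, no single region of the genome passed limma's test at an adjusted p of 0.05 on either scale. With the replicate number as a block, 6604 regions of the genome passed as deposited and 1811 on the corrected scale. Neither the labels nor the correlations given at the end settle whether same-numbered samples are pairs. Without the block, an unadjusted p of 0.05 was passed on the corrected scale by 5.82% of all 50150 regions with higher and 4.56% with lower values, and on the values as deposited by 2.46% and 10.1%. As deposited, the APH values lay all above the DMSO values in 194 regions of the arm (9.97%), with 4.21% of all regions, and all below in 160 (8.22%), with 14.4% of all regions.

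The position along the arm was examined in bins of 5 Mb, of which 20 held at least 20 shared regions. The median was higher in APH than in DMSO in 19 of the 20, and in 13 of them all APH samples lay above all DMSO samples, which was the case for 10.3% of the 554 such windows of the genome, those of the arm included. In none of the 20 did all APH samples lie below all DMSO samples, as in 9.57% of the windows of the genome. With the trend fitted apart for coding promoters, as described below, all APH samples lay above in 14 of the 20 (11% of the windows of the genome) and all below in 1 (8.48% of these windows), the first bin, at −0.036. None of the 9 bins of the short side had this separation, and their differences lay between −0.069 and 0.039. The first bin of the arm, from its start to 50 Mb, had the lowest difference (−0.0042, 44 regions). This stretch next to the centromere contains PRKDC, MCM4 and CEBPD. From there the difference was 0.124 in the bin at 50 Mb and 0.071 to 0.142 in the bins from 60 to 85 Mb. It was largest, 0.205, in the bin from 100 to 105 Mb (146 regions), which contains RRM2B and GRHL2. With centring alone, without the trend correction, this bin differed by 0.173 with overlap, and the largest difference was 0.347, in the bin from 110 to 115 Mb (37 regions). On that scale all APH samples lay above all DMSO samples in 6 of the 20 bins, and no share of the genome's windows was taken. Between 90 and 105 Mb, 372 regions had medians of −0.087, −0.055 and −0.139 in DMSO and 0.119, 0.102 and 0.060 in APH, and 76.6% of them were higher in APH. From 105 Mb to the excluded interval, 398 regions differed by 0.141 and 73.4% were higher. From the end of that interval to 135 Mb, 141 regions differed by 0.200 and 78.7% were higher. In both stretches all APH samples lay above all DMSO samples.

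**Figure D2:**
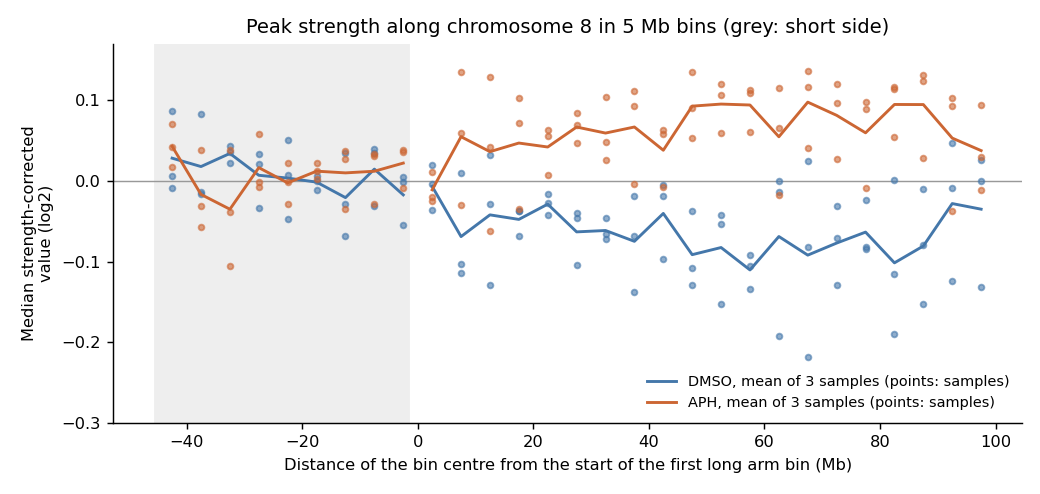
Median strength-corrected value (log2) of shared regions in 5 Mb bins of chromosome 8 against the distance of the bin's centre from the start of the arm's first bin, with the short side in grey; points are samples and lines are means of 3 samples. The APH and DMSO lines differ by −0.069 to 0.039 on the short side and by −0.0042 in the arm's first bin. They then separate by up to 0.205, and approach each other in the last bins, where the difference is 0.073.

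Toward the end of the arm the difference was small in the windows densest in genes. The bin from 135 to 140 Mb differed by 0.081 with overlap. In windows of 1 Mb the difference was 0.173, 0.156, 0.155 and 0.182 from 139 to 143 Mb. The lowest APH value exceeded the highest DMSO value in each of these 4 windows. No share over all windows of 1 Mb of the genome was taken, so their number is not read as a result. The difference was 0.034 in the window after 143 Mb (75 regions) and 0.0006 in the one from 144 to 145 Mb (86 regions). These 2 windows were the densest in genes, with a median of 33 and 44 coding gene starts within 500 kb of a region, and their samples of one condition were far apart (SD 0.138 and 0.135 among DMSO samples). They contain PLEC, HSF1, DGAT1, MAFA and most of the zinc finger genes of the arm. Since strong promoters moved between samples of one condition, the trend was also fitted apart for coding promoters and for all other regions, a choice made after the data were seen. Then 108 distal regions (in gene bodies or between genes) beyond 143 Mb had a difference of −0.0056, and 171 distal regions between 135 and 143 Mb one of 0.098, with all APH samples higher. With the single trend the values were 0.061 and 0.142. The bounds at 139 and 143 Mb were themselves chosen after their values were seen.

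The share of peaks was taken in the same bins. In 13 of the 20 all APH samples had a larger share of their peaks than all DMSO samples, which was the case in 10.1% of the windows of the genome and in 0 of the 9 bins of the short side. The ratio of the mean shares ranged from 0.989 in the bin from 140 to 145 Mb to 1.22 in the bin from 135 to 140 Mb. It was 1.11 in the first bin, 0.992 in the bin at 50 Mb and 1.07 in the bin from 100 to 105 Mb, each with overlap. In the bin from 110 to 115 Mb it was 1.20 without overlap. In the windows from 143 to 144 and from 144 to 145 Mb the ratio was 0.971 and 0.914.

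The regions next to the bounds of the rule had differences of either sign. The last 3 shared regions before the start differed by −0.358, −0.077 and 0.154 between APH and DMSO, and the first 3 regions after it by −0.158, 0.060 and −0.157. At the lower bound of the excluded interval the 3 nearest regions on the arm differed by 0.224, 0.107 and −0.018, and the 3 beyond it by 0.023, 0.176 and 0.134. At its upper bound the 3 regions inside the interval differed by 0.310, −0.063 and −0.119, and the 3 on the arm by 0.210, 0.370 and 0.235.

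The difference varied with the class of region. Between genes, the median of 699 regions was −0.080, −0.015 and −0.152 in DMSO and 0.123, 0.123 and 0.002 in APH, a difference of 0.165 with no overlap. In gene bodies, 966 regions had −0.077, −0.031 and −0.110 in DMSO and 0.105, 0.094 and 0.001 in APH, a difference of 0.140 with no overlap. The 40 promoters of other genes, most of them of non-coding RNAs, differed by 0.117 with no overlap. The 241 coding promoter regions had 0.080, −0.177 and 0.112 in DMSO and −0.049, −0.136 and 0.141 in APH, so that the groups overlapped and differed by −0.020. With the trend fitted apart for coding promoters they differed by 0.027, and with centring alone by −0.243, each with overlap. In each condition one or more samples were high and others low, and the coding promoters of other chromosomes moved with them, as given above. The part of this in the result was not tested.

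Each class was therefore set against the same class on the other chromosomes in the same sample, a comparison added after the data were seen. The arm's intergenic regions were then lower than those elsewhere by −0.066 ± 0.034 in DMSO and higher by 0.066 ± 0.031 in APH (SD, n = 3), a difference of 0.132. Gene bodies differed by 0.121 and other promoters by 0.153, each without overlap. Coding promoters were at −0.036 ± 0.067 in DMSO and 0.031 ± 0.043 in APH, a difference of 0.067 within groups that overlapped. On the short side the differences were −0.006 for intergenic regions, −0.007 for gene bodies and 0.013 for coding promoters, all with overlap. Whether promoters and distal regions of the arm differ in their change was not tested.

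**Figure D3:**
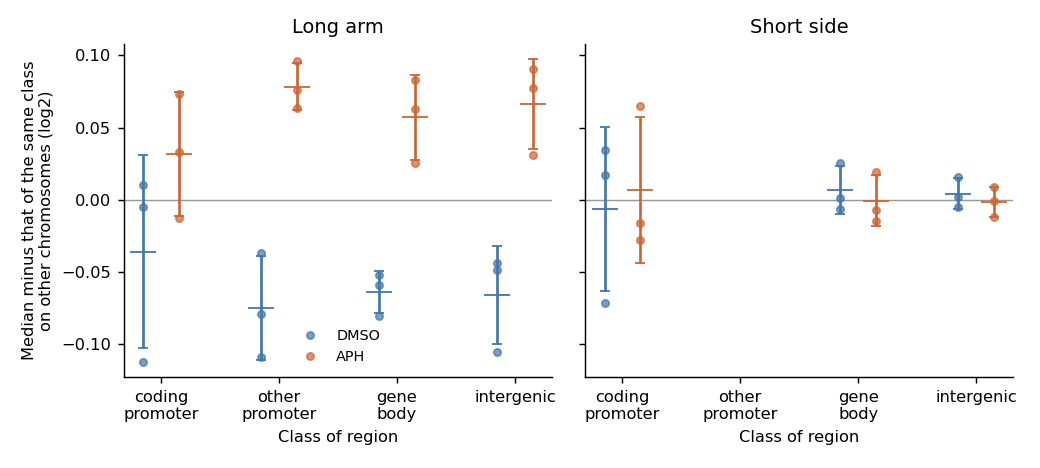
Median strength-corrected value of each class of region minus that of the same class on other chromosomes (log2), on the long arm (left) and the short side (right); points are samples, horizontal marks are means of 3 and error bars are SD. On the long arm APH and DMSO samples separate in other promoters, gene bodies and intergenic regions and overlap at coding promoters, and on the short side they overlap in every class drawn (other promoters, with 9 regions, are not drawn).

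Regions were also grouped by their distance to the nearest coding gene start. Relative to other chromosomes, the difference was 0.108 for 223 regions at 1 to 10 kb from a start, 0.144 for 489 regions at 10 to 50 kb, 0.122 for 648 regions at 50 to 200 kb and 0.097 for 345 regions beyond 200 kb. The groups did not overlap at any of these distances. Regions in gene bodies gave 0.125 in genes under 100 kb (343 regions) and 0.127 in genes of 500 kb or more (109 regions). In surroundings of low, middle and high gene density it was 0.112, 0.144 and 0.076, and the groups overlapped only at high density, which lies almost entirely at the end of the arm. On the short side the values were −0.026 with all APH samples lower, −0.015 with overlap and 0.061 with all APH samples higher.

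The difference was then taken by the strength of the regions. All shared regions of the genome were divided by mean value into 5 classes of equal number, with bounds at 37.9, 55.0, 83.7 and 137 coverage units. On the arm the corrected difference was 0.098, 0.133, 0.132, 0.170 and 0.076 from the weakest to the strongest class, and the groups overlapped in the 3 strongest classes. With classes set by the DMSO mean, the weakest, next to strongest and strongest classes differed by 0.157, 0.152 and 0.059. With centring alone these were 0.239, 0.064 and −0.107, so the order of the classes depends on the processing. The last class mixed 250 distal regions, which differed by 0.203 and of which 86.8% were higher in APH, with 208 promoter regions, which differed by −0.015 and of which 40.9% were higher. Against distal regions of the same class on other chromosomes, the difference of distal regions was 0.103, 0.131, 0.114, 0.133 and 0.125 from weakest to strongest, and all APH samples lay above all DMSO samples in each of the 5 classes. For distal regions of the short side it lay between −0.017 and 0.011. Promoters of the class next to the strongest differed by 0.131 without overlap (45 regions), and those of the strongest class by 0.039 with overlap (208 regions). In the values as deposited, without any correction, the weakest regions of the arm were higher in APH by 0.211 and the strongest lower by 0.135 (log2). Other chromosomes had the same tilt, from 0.089 in the weakest to −0.213 in the strongest class, and the correction removes it.

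**Figure D4:**
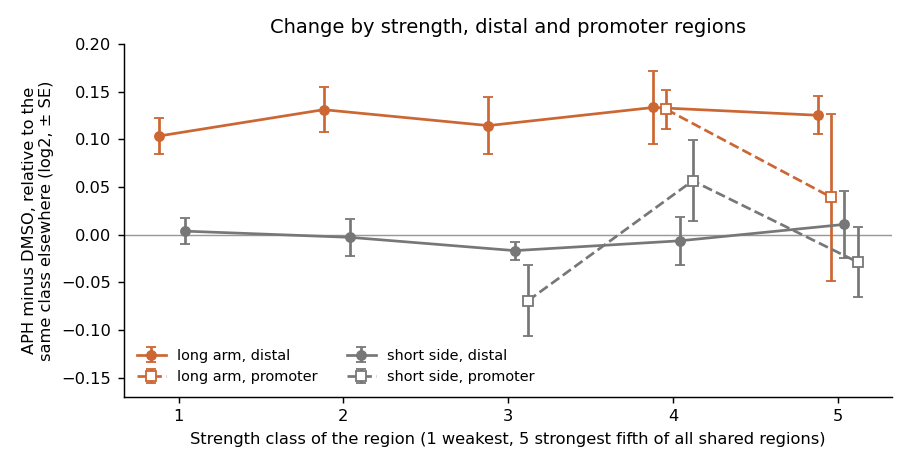
APH minus DMSO difference (log2) of the median strength-corrected value relative to the same class of region on other chromosomes, by strength class from the weakest (1) to the strongest (5) of 5 equal parts of all shared regions, for distal and promoter regions of the long arm and the short side; error bars are SE from 3 samples per condition, and classes with fewer than 20 regions are not drawn. Distal regions of the arm stay between 0.103 and 0.133 in all 5 classes, and those of the short side near 0.

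Regions with peaks in only one condition were more often APH regions on the arm. A peak was found in APH but no DMSO sample in 1222 of the 4651 regions (26.3%), where 18.5% of all regions were of this kind, and in DMSO but no APH sample in 321 (6.90%), where 7.03% of all regions were. On the short side the shares were 19% and 6.88%. In the strict form, with a peak in all 3 APH and no DMSO sample, there were 73 regions on the arm (1.57%, against 1.11% of all regions), and 4 of the opposite kind (0.086%, against 0.184%). The 73 regions had 41 members in gene bodies, 32 between genes and none at a promoter. They were weak, with a median value of 27.4 in APH and a range from 19 to 89.4, near the lowest value of 15.1 to 15.5 at which any peak was listed. The strongest was chr8:133206956-133207262, in a gene body, with 92.8, 96.6 and 78.8 in the APH samples. Among gene bodies 28.2% and among intergenic regions 27.5% had peaks in APH only, and 13 of 279 coding promoter regions (4.66%) did. On the short side these were 20.6%, 21.3% and 3.90%. With the peak number of each sample made equal, 18.0% of the arm's regions had peaks in APH only and 9.72% in DMSO only, compared with 10.7% and 11.8% of all regions.

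The share was also taken by rank. Each sample's peaks were divided into 5 equal groups by value, and since the lists differ in length and in their values, a group is not the same strength in each sample. Of the weakest, the arm held 4.43% ± 0.157 in DMSO and 4.41% ± 0.113 in APH (SD, n = 3). Of the next it held 4.23% ± 0.177 and 4.83% ± 0.230, and of the middle group 3.68% ± 0.086 and 4.28% ± 0.062. The ratio of APH to DMSO from the weakest group upwards was 0.995, 1.14, 1.16, 1.10 and 1.08, with no overlap in the 3 groups between the weakest and the strongest. For the short side it was between 0.957 and 1.06, with overlap in all 5 groups.

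Single regions are given for the largest corrected differences among regions whose groups did not overlap on that scale. The largest was intergenic, chr8:70074949-70075447, about 3.95 kb from the start of PRDM14, a transcription factor of germ and pluripotent cells. Its values were 17.7, 29.5 and 24.5 in DMSO and 55.0, 47.3 and 40.8 in APH, a corrected difference of 0.891 ± 0.190 (SE). PRDM14 itself had no promoter peak. An intergenic region nearest to PEX2, a peroxisome biogenesis gene 310 kb away (chr8:77310423-77310833), had 75.8, 103 and 70.2 in DMSO and 141, 160 and 120 in APH, and differed by 0.879. Next came intergenic regions nearest to PKIA (0.860, 614 kb from its start) and KCNV1 (0.850, 84.7 kb). A gene body region nearest to the start of MRPS28 (0.818, 22.4 kb) followed. The values of the PKIA region as deposited were 23, 33.1 and 22.2 in DMSO and 59, 53.9 and 40.7 in APH. The lowest DMSO values of the PRDM14 and PKIA regions, 17.7 and 22.2, were near the lowest listed peak values (15.1 to 15.5). Those of the KCNV1 and MRPS28 regions overlapped as deposited, with DMSO replicate 2 above APH replicate 3. A region in the body of MATN2 (chr8:97918274-97918839), which encodes a matrix protein, had 66.6, 76.5 and 64.1 in DMSO and 116, 130 and 94.5 in APH, and differed by 0.794. Of these 6 regions, 4 had values as deposited that were also all higher in APH. The largest difference in the other direction was intergenic, chr8:137725908-137726308, with 39.4, 49.3 and 26.4 in DMSO and 23.7, 20 and 25.8 in APH.

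Among the 10 strongest regions of the arm the corrected difference ran from −0.154 ± 0.065 (SE) at the promoter of SLC25A32, a mitochondrial carrier, to 0.157 ± 0.101 in a region nearest to GEM, a small GTPase. The region shared by the starts of VCPIP1, a deubiquitinase, and C8orf44-SGK3 (chr8:66666989-66667744) had values of 865, 1182 and 857 in DMSO and 807, 946 and 682 in APH, and a corrected difference of −0.0075 ± 0.085 (SE). ELOC, which encodes elongin C, differed by 0.0050 ± 0.149. RRM2B, the p53-inducible subunit of ribonucleotide reductase, had 760, 815 and 852 in DMSO and 662, 688 and 703 in APH. These values were all lower in APH, but by as much as other regions of that strength, so that the corrected difference was 0.0038 ± 0.131. AZIN1, an inhibitor of antizyme, differed by −0.053 ± 0.111.

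The promoters of the arm's coding genes were then taken gene by gene. Of 420 coding genes, 251 had a peak in every sample within 1 kb of their start (223 distinct regions), 19 in some samples, 132 in none, and 18 had no strand to place the start. Each gene was given the strongest region overlapping 1 kb either side of its start, while the 241 regions above (40.2% higher) were taken by midpoint. Shares of all coding promoter regions of the genome were also taken by midpoint. Of the 223 regions 86 were higher in APH (38.6%), with a median of −0.025, against 24 of 113 (21.2%) and a median of −0.085 on the short side. The groups did not overlap in 9 higher and 10 lower regions, where 3.91% and 11.1% of all coding promoter regions of the genome were so. As deposited, 208 of the 223 had a lower mean in APH, as did 104 of the 113 on the short side.

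MTDH, which encodes an RNA-binding membrane protein called metadherin, had the largest difference toward higher values in APH of any coding promoter on the arm. Its values at chr8:97643449-97644674 were 184, 182 and 214 in DMSO and 250, 222 and 215 in APH, a corrected difference of 0.477 ± 0.145 (SE). It was followed by DNAAF11 (0.454 ± 0.146) and SPAG1 (0.350 ± 0.122), both needed for assembly of the dynein arms of cilia. JPH1, a junctophilin of muscle membranes, and FAM83A, a protein that binds casein kinase, differed by 0.345 and 0.344. On the corrected scale no APH sample of these 5 lay below a DMSO sample. The other genes with such a separation were FBXO43 and POLR2K, which share a region, ANGPT1, ZNF707 and VPS28. At the lower end was RGS20, a regulator of G protein signalling, with 49.5, 46.0 and 30.8 in DMSO and 26.3, 30.8 and 26.1 in APH and a corrected difference of −0.652 ± 0.182. FABP12, a fatty acid binding protein (−0.520), and CHD7, a chromatin remodeller (−0.349), had groups that overlapped. TYW2, an enzyme of tRNA modification (−0.357), and MRPL15, of the mitochondrial ribosome (−0.330), did not overlap.

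Of 20 genes of replication, repair and the cell cycle on the arm, 19 had a promoter peak in every sample and UBE2V2 in some. Of the 19, 6 had a higher corrected mean in APH, with a median of −0.085, beside 86 higher, with a median of −0.025, among all 223 coding promoter regions of the arm. The lowest was PRKDC, the catalytic subunit of DNA-dependent protein kinase, with 279, 283 and 297 in DMSO and 189, 195 and 212 in APH as deposited. Its corrected difference was −0.305 ± 0.117 and its corrected groups overlapped. The highest was CCNE2, encoding cyclin E2, at 0.118 ± 0.130. RAD21, a cohesin subunit, was the single member whose corrected groups did not overlap, with 207, 263 and 221 in DMSO and 158, 193 and 178 in APH (−0.157 ± 0.069), so that 1 of 19 was lower and 0 higher without overlap, where 11.1% and 3.91% of all coding promoter regions of the genome were.

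Among 11 translation genes, all with a peak in every sample, 2 were higher, with a median of −0.093. Their range ran from MRPL15 to EIF3H, a subunit of an initiation factor (0.045), and RPL8 had the strongest region (mean value 385). Of 6 genes of mitochondrial respiration 3 were higher. They included UQCRB of complex III (0.155 ± 0.195), while COX6C of cytochrome oxidase, at 124, 132 and 116 in DMSO and 97.9, 104 and 97.8 in APH, was lower without overlap (−0.156). NDUFAF6, an assembly factor of complex I, shared its region with CCNE2. Among all 223 coding promoter regions of the arm 38.6% were higher. Of all coding promoter regions of the genome, 11.1% were lower and 3.91% higher without overlap. With 11 and 6 genes, these counts are not read as a result about either list.

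Of 23 developmental and stress transcription factors, 11 had a peak in every sample, TOX in some, and 11 in none, among them SNAI2, SOX17, PRDM14 and EYA1. Of the 11 with a peak in every sample, 3 were higher in APH. HSF1, the heat shock factor, had the highest difference (0.201 ± 0.121), SCRT1, a neuronal repressor, the lowest (−0.313 ± 0.331), and OSR2 the strongest region. MAFA, a factor of pancreatic beta cells, was lower without overlap (−0.186). All 11 zinc finger genes of the end of the arm had a peak in every sample, and 4 were higher. ZNF707, with 222, 237 and 263 in DMSO and 233, 266 and 235 in APH, differed by 0.252 without overlap in the corrected values, and ZNF623 by −0.252 with overlap. ZNF34, the strongest of them, differed by 0.214. For both lists, 38.6% of all 223 coding promoter regions of the arm were higher. Of all coding promoter regions of the genome, 11.1% were lower and 3.91% higher without overlap. With 11 genes each, these counts are not read as a result about either list.

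Of 12 epithelial and intestinal genes 6 had a peak in every sample, and 5 of these were higher, with a median of 0.079. The highest was TPD52 (0.173 ± 0.249), and the lowest CA2, a carbonic anhydrase (−0.028 ± 0.167). LY6K, a surface protein with the strongest region, had 509, 606 and 455 in DMSO and 499, 495 and 463 in APH. None of the 6 separated the conditions, where 3.91% of all coding promoter regions of the genome did so with higher and 11.1% with lower values in APH, and the share with a higher mean was 38.6% among all 223 coding promoter regions of the arm. With 6 genes, these shares are not read as a result about the list. Of 10 genes of lipid and steroid metabolism, 4 had a peak in every sample and 1, FABP5, was higher (0.124). DECR1, an enzyme of fatty acid oxidation, was the lowest (−0.144), and DGAT1, of triglyceride synthesis, had the strongest region and differed by −0.055. CYP7A1 and CYP7B1, enzymes of bile acid synthesis, had no peak.

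**Figure D5:**
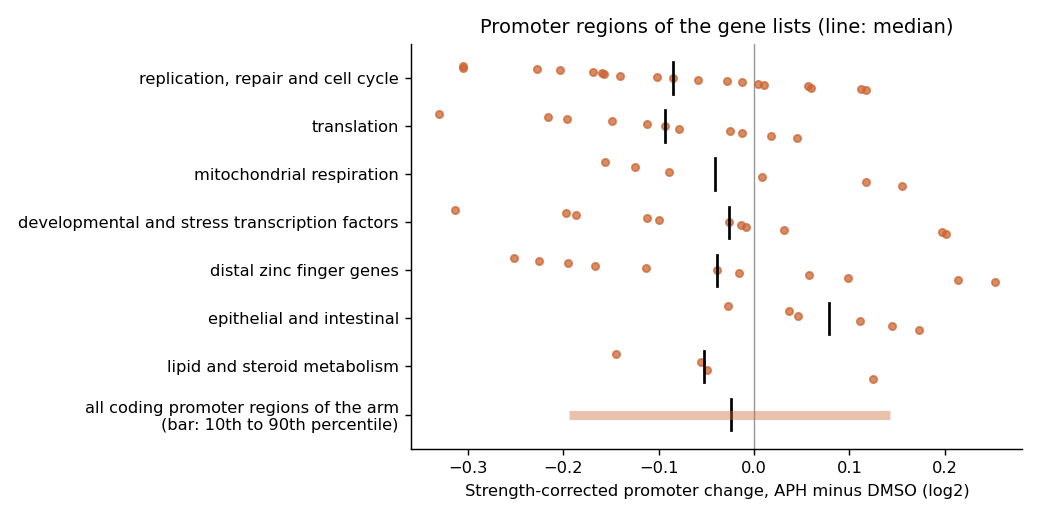
Strength-corrected difference (APH minus DMSO, log2) at the promoter of each listed gene with a peak in every sample, by gene list; each point is a gene, vertical lines are medians, and the bar in the last row runs from the 10th to the 90th percentile of all 223 coding promoter regions of the arm. The list medians lie between −0.093 for translation and 0.079 for epithelial and intestinal genes, around the −0.025 of all promoters.

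The 10 coding genes of at least 500 kb on the arm were described through the regions in their bodies. Together they held 120, 151 and 122 peaks in DMSO and 180, 183 and 148 in APH, and the groups overlapped, with DMSO replicate 2 above APH replicate 3. Of their 93 shared regions 63 were higher in APH and 17 separated the conditions with higher values in APH, which is close to the 69.4% and 19.6% of all shared regions of the arm. In CSMD3, the longest with 1214 kb, which encodes a membrane protein of the CUB and sushi domain family, 8 of 10 shared regions were higher and 5 of them without overlap, and peaks numbered 14, 14 and 11 in DMSO and 18, 16 and 15 in APH. STK3, a kinase of the Hippo pathway, had 21, 27 and 21 peaks in DMSO and 34, 29 and 28 in APH, and 14 of its 19 shared regions were higher. TRAPPC9, of a vesicle tethering complex, had 24, 35 and 26 against 40, 38 and 32, and 14 of 17 were higher. In RIMS2, a protein of the presynaptic zone, 8 of 10 were higher, and in CLVS1 8 of 15. VPS13B, a lipid transfer protein, had 4 of 9 higher. RALYL and CNBD1 had 2 of 4 and 1 of 3, and SNTG1 and NKAIN3 2 of 2 and 2 of 4. Regions higher without overlap numbered 4 in STK3, 3 in TRAPPC9, 2 in CLVS1 and 1 each in SNTG1, NKAIN3 and VPS13B. RIMS2, RALYL and CNBD1 had 0. Of all shared regions of the genome 8.61% were so. With so few regions per gene, the genes were not compared with one another.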

How the data were processed

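ATAC-seq peaks of 6 RKO samples, grouped by their labels, were used. The authors deposited 1 list per sample with each peak's position and its signal, the mean coverage over the peak. Per the study's methods, duplicates were removed, alignments were lengthened to 200 bp and assigned to bins of 32 nt, and peaks were called in each sample and filtered against a blacklist. The submitters' processing notes name BWA 0.7.12, MACS2 2.1.0 and hg38. No shift to the Tn5 cutting site is stated. The signal times the number of bins under a peak was whole, to the last decimal given, for 99.987% to 99.996% of the peaks under 1000 bp and 1000 units in each sample, so values were not scaled to the library. Depth is unknown, so no counting interval is given.

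Peaks overlapping by 1 bp were merged, a region's value was the length-weighted mean of its peaks, and log2(value + 1) was corrected, in each sample, by the median deviation in 100 bins of region strength. Region starts are printed as the listed start plus 1. The whole-number check took listed starts as counted from 1, so printed starts may be 1 base too high. Genes came from RefSeq (GRCh38.p14), with strand from GENCODE for 681 of 715 coding genes of the chromosome, and the promoter is 1 kb to each side of a start. All 50150 shared regions were fitted with limma (intensity trend, Benjamini-Hochberg at 0.05, counts also at an unadjusted p of 0.05). In a simulation that used the residual spread of the corrected values, limma called 4 of 50 regions changed by 0.5 (log2), 24 of 50 changed by 1 and 46 of 50 changed by 2. The simulated noise was independent between regions, and few regions were changed, all upward. These rates need not hold where many regions shift together.

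The region rule, the gene lists and the comparisons were chosen with earlier results of these data known. Named genes were, per list, the strongest, highest and lowest promoter, the 5 highest, lowest and strongest coding promoters of the arm, genes of at least 500 kb and regions next to the bounds. Other genes and regions were named after their values were seen. Alternatives covered trend, pseudocount, merging, peak threshold, bins, promoter size, replicate block and each replicate left out. No sequence of this chromosome is reported here. Software was R 4.3.3, limma 3.58.1 and Python 3.11.15 (pandas 2.3.3, numpy 2.4.6).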

Additional observations from a re-analysis of the deposited data

How the results depend on the processing

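The difference of the long arm stayed positive under all 13 alternatives of trend, scaling, pseudocount, merging, threshold and filter (0.107 to 0.148) and with each sample left out (0.110 to 0.139), and that of long arm minus short side with each sample left out (0.110 to 0.149). Its groups overlapped in values as deposited, centred values and quantile normalized values. The peak share of the arm differed by 0.360 to 0.382 percentage points with a sample left out. Quantile normalization gave −0.023 for the short side and 0.171 for long arm minus short side, and the values as deposited gave −0.027 for the short side. An equal number of peaks per sample gave −0.024 percentage points for the short side's share and −0.037 for the ratio of mean peak values, and peaks at or above the median value gave −0.011 for that ratio. With equal peak numbers, 18.0% and 9.72% of the arm's regions had peaks in APH only and DMSO only, and 10.7% and 11.8% of all regions.

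Without the trend correction, with centring alone, the weakest, next to strongest and strongest classes differed by 0.239, 0.064 and −0.107, and coding promoters by −0.243. The 5 Mb bins from 140 and from 110 Mb, then the lowest and highest, differed by −0.069 and 0.347, and 30% of bins separated the conditions. Centring leaves each sample's trend with strength in the values, and its part in these differences was not tested. Classes from the DMSO mean gave 0.157 for the weakest, and 0.076 to 0.113 was found with a sample left out, lowest without DMSO replicate 2. Coding promoters ranged from −0.116 to 0.038 with a sample left out, and the bins that separated the conditions from 65.0% to 90%.

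With the replicate block, limma called 146 regions of the arm higher and 134 lower as deposited (6604 of all regions) and 166 higher and 11 lower on the corrected scale (1811 of all regions). The arm was chosen on this contrast, so nothing is read from its counts. The deviations of same-numbered samples correlated with r = −0.007, 0.477 and 0.515 for numbers 1, 2 and 3. Those of samples with different numbers lay between −0.562 and 0.258. These values do not settle whether the numbers are pairs, and the main fit did not use them. With a sample left out, 0 to 2 regions were called as deposited and 0 to 7 when corrected, the largest without APH replicate 3 (7) and without DMSO replicate 2 (2 and 4, of which 0 and 1 higher on the arm). Centring on the median gave 1 call. The cause of these changes was not tested. Unknown depth limits what weak regions can show.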
